A study of Homo sapiens with 4 samples.

Results

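RUNX1, RUNX2 and RUNX3 encode the DNA-binding subunits of core binding factor, CBFB encodes their shared partner subunit, and RUNX1T1 encodes the co-repressor that is fused to RUNX1 in one form of acute myeloid leukaemia. GATA2 ChIP-seq peaks were taken as members when they overlapped the annotated body of 1 of these 5 genes or the 100 kb on either side of it. This window rule uses gene positions and no measured value. It took 59 of the 31777 peaks of asynchronous cells (0.186%) and 3 of the 1648 peaks of mitotic cells (0.182%). The cells were K562, an established human chronic myeloid leukaemia line that grows in suspension and makes GATA2 from its own gene. One group was asynchronous K562, which is mostly in interphase, and the other was K562 arrested in mitosis with nocodazole, a drug that stops microtubules from forming. Cells of both groups were fixed first with disuccinimidyl glutarate and then with formaldehyde, and mitotic cells were purified by sorting for MPM-2, a phosphoprotein mark of mitosis. Mitotic cells from several rounds of sorting were pooled into 1 ChIP, a minor share of asynchronous cells was stated to remain among them, and an antibody against endogenous GATA2 was used in both groups. Each condition therefore has 1 GATA2 library, so no difference between the conditions has a replicate check and no test between them was made. The peak lists give only where a peak starts and ends, so depth and height are unknown. A peak missing from the mitotic list cannot be told apart from one below its limit of detection. All intervals given for shares are exact binomial 95% intervals and cover counting error over peaks only. Where a count is 0, the upper limit given is instead that of 3 counts in the total.

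RUNX proteins bind DNA through the Runt domain and recognise a short core sequence. CBFB does not touch DNA itself but strengthens the binding of RUNX proteins and protects them from degradation. RUNX1 is required for the emergence of definitive blood stem cells from haemogenic endothelium, and it is transcribed from a distal promoter, P1, and a proximal promoter, P2. RUNX2 is the main regulator of bone formation, and RUNX3 acts in lymphocytes and sensory neurons. GATA2 is a zinc finger factor of blood stem and progenitor cells that binds WGATAR, and it shares many target genes with RUNX1 in these cells.

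The sequences below are from the forward strand of hg38. They show the 2 RUNX1 regions at which GATA2 peaks were listed in mitosis and asynchronous-only regions to set beside them. A mitotic peak overlapped 2 of the 41 asynchronous RUNX1 peaks, or 4.88%, and 5.04% of all asynchronous peaks. Capitals mark WGATAR (GATA with A or T before it and A or G after it) and the RUNX core AACCACA, both read on either strand, so TTATCT is a reversed AGATAA and TGTGGTT is a reversed AACCACA. A match that overlaps an earlier match of the same string is neither marked nor counted. Peaks over 300 bp are shown by their central 300 bp. The first pair are the mitotic peaks, the next 3 are asynchronous-only RUNX1 peaks that hold a RUNX core, and the last 3 are asynchronous-only peaks inside RUNX2, RUNX3 and CBFB.
RUNX1 intron 2, mitotic, chr21:34908616-34908915: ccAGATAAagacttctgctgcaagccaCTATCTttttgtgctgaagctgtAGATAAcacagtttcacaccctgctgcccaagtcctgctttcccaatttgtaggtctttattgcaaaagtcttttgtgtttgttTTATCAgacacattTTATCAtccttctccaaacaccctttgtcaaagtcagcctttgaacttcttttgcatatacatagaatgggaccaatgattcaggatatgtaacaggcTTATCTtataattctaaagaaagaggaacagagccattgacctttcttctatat
RUNX1 upstream of P1, mitotic, chr21:35106407-35106612: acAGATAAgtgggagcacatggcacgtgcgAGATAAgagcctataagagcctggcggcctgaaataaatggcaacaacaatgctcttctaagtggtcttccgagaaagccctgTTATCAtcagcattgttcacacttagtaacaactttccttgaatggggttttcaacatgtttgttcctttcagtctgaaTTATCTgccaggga
RUNX1 at P1, asynchronous only, chr21:35049425-35049630: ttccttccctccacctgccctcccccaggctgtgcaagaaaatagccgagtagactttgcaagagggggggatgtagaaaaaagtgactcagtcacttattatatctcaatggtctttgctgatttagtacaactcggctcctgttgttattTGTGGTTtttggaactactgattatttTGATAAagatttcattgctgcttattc
RUNX1 23 kb downstream of P1, asynchronous only, chr21:35026171-35026421: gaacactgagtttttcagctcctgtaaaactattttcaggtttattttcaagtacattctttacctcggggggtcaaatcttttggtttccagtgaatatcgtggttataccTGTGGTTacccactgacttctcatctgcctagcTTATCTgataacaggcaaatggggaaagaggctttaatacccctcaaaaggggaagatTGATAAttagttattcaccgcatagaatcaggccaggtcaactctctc
RUNX1 22.4 kb downstream of P1, asynchronous only, chr21:35026749-35027048: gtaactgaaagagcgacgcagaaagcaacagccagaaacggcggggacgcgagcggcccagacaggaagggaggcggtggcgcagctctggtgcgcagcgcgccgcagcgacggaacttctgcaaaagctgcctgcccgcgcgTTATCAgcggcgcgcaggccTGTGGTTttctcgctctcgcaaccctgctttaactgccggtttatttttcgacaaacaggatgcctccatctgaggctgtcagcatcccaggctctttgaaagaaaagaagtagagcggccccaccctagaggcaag
RUNX2 intron 5, asynchronous only, chr6:45450909-45451200: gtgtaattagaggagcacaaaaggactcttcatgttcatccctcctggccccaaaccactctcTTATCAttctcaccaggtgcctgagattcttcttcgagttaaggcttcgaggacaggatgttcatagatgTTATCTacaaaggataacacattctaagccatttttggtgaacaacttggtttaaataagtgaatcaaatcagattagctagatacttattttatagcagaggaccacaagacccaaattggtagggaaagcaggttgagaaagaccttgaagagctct
RUNX3 upstream of the canonical start, asynchronous only, chr1:24952415-24952657: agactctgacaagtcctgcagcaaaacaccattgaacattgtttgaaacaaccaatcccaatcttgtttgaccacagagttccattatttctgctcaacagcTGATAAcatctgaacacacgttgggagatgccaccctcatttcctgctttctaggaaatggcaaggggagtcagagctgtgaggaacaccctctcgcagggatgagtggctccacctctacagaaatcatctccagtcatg
CBFB intron 3, asynchronous only, chr16:67055758-67056038: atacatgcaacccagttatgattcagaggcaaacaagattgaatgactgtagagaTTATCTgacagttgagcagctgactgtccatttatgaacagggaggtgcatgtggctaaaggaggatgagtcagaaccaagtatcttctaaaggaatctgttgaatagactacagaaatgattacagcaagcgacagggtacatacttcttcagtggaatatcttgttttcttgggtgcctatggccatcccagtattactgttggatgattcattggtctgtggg
The first sequence holds 6 WGATAR matches and the second holds 4, and neither has a RUNX core. The asynchronous-only sequences were picked for their place or their RUNX core and hold 1 or 2 matches each, so they do not stand for all such peaks, among which are peaks with as many matches as the mitotic ones or more. A RUNX core was found in 4 of the 41 asynchronous RUNX1 peaks, or 9.76% (2.72 to 23.1), against 13.6% of all asynchronous peaks.

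RUNX1 held 41 of the 59 asynchronous peaks and 2 of the 3 mitotic peaks. The gene (ENSG00000159216, minus strand) is annotated at chr21:34787801-36004667, and 36 of its 41 peaks lay inside that body. Only 1 of the 20033 protein-coding genes had more asynchronous peaks in its window, which was ZFPM2, a zinc finger cofactor of GATA proteins, with 44 asynchronous and 5 mitotic peaks. The median protein-coding window held 4 asynchronous peaks, with quartiles of 1 and 7. The RUNX1 window is also long, at 1417 kb against a median of 227 kb. Per 100 kb, RUNX1 had 2.89 peaks, which ranked 4164, above 79.2% of protein-coding genes, whose median was 1.48 per 100 kb. The count was thus near the top of all genes, while the density was only in the upper quartile. Of the length annotated as RUNX1, 955 kb lies upstream of P1, the start of the canonical transcript at position 35049302. When the canonical transcript with 100 kb on either side was used in place of the annotated gene, an alternative chosen after seeing the data, RUNX1 held 17 asynchronous peaks and both mitotic peaks.

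Of the 5 segments into which the RUNX1 window was divided at its promoters and gene ends, the one between the promoters had most GATA2 peaks per length. The 161 kb from P2 to P1 held 8 asynchronous peaks, or 4.98 per 100 kb, and the 955 kb upstream of P1 within the annotated gene held 26, or 2.72 per 100 kb. The coding part from P2 to the 3′ end held 2 peaks in 101 kb, the 3′ flank held 2 in 100 kb, and the flank beyond the annotated 5′ end held 3 in 100 kb. Mitotic peaks fell once between the promoters and once upstream of P1. Neighbouring peaks in the window were separated by a median of 21.3 kb, from 141 bp to 286 kb. The closest cluster was 6 peaks in 47.9 kb at chr21:35470291-35518209, 421 to 469 kb upstream of P1. These 6 peaks were 356 to 901 bp wide, held 19 WGATAR matches in all, and none of them was listed in mitosis. Another 7 peaks lay in the 95.9 kb from intron 2 to the P1 peak, and none of these was listed in mitosis either. Of all asynchronous peaks 5.04% were overlapped by a mitotic peak, so 6 or 7 peaks are too few to set these stretches apart. The window covers 3.03% of chromosome 21 and held 41 of its 414 asynchronous peaks (9.90%) and 2 of its 18 mitotic peaks (11.1%).

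**Figure D1:**
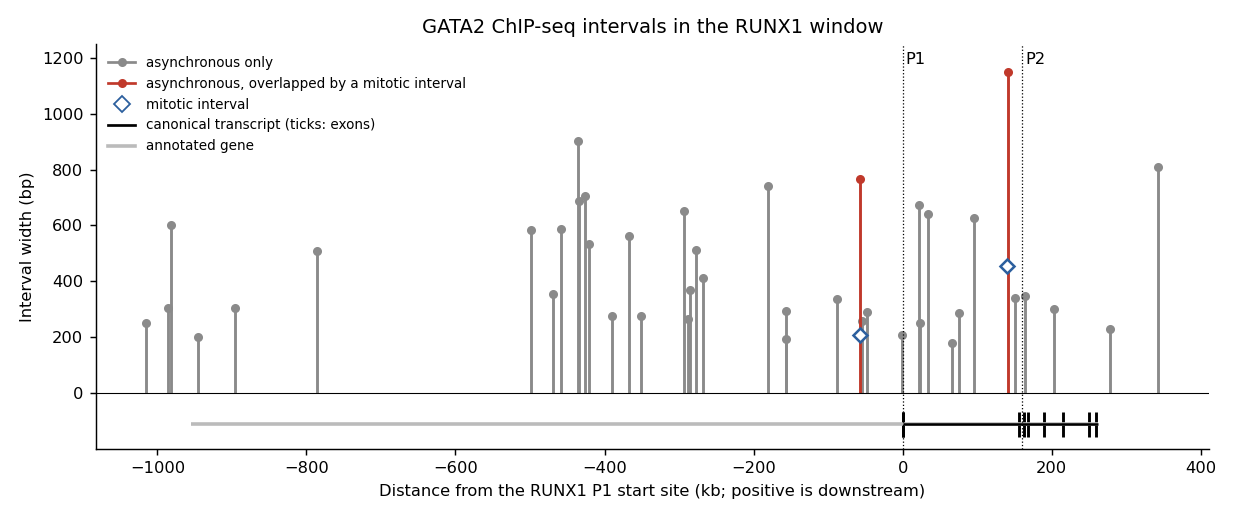
The x axis is the distance in kb from RUNX1 P1 (positive values lie downstream) and the y axis is the width of each GATA2 peak in bp, with grey stems for asynchronous-only peaks, red stems for asynchronous peaks overlapped by a mitotic peak and open diamonds for mitotic peaks. The 2 red stems stand 57.2 kb upstream and 141 kb downstream of P1, and a stretch of 286 kb in the upstream part holds no peak.

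The comparison of the lists asks which GATA2 sites of interphase are still occupied during mitosis, which is called bookmarking. A bookmarked peak is here an asynchronous peak that shares at least 1 base with a mitotic peak. The first RUNX1 bookmarked peak lay in intron 2, between the promoters, at chr21:34908027-34909176. It was 1150 bp wide, and the mitotic peak within it, chr21:34908539-34908991, was 453 bp wide and covered 39.4% of it. Of the 7 WGATAR matches in the asynchronous peak, 6 were in the mitotic peak, which makes 13.2 matches per kb there against 1.43 per kb in the rest. The mitotic peak was centred 141 kb downstream of P1 and 20.1 kb upstream of P2, and its centre lay 164 bp from that of the asynchronous peak. RUNX1 P2 itself had no overlapping peak, and the nearest asynchronous peak, chr21:34884998-34885346, was 3344 bp away on the 3′ side.

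The second RUNX1 bookmarked peak lay 57.2 kb upstream of P1, at chr21:35106078-35106844, still inside the annotated gene but outside the canonical transcript. It was 767 bp wide, and the mitotic peak, chr21:35106407-35106612, was 206 bp wide and covered 26.9% of it. All 4 WGATAR matches of the asynchronous peak were in the mitotic peak, at 19.4 per kb, and 0 were in the rest. The centres of both peaks were 48.5 bp apart. The protein-coding start site nearest to both RUNX1 bookmarked peaks was one of RUNX1 itself. WGATAR matches were crowded near the centre over all 59 members too, with a mean of 2.07 in the central 200 bp against 2.85 in whole peaks. The crowding in the mitotic peaks was not compared with the centres of asynchronous-only peaks.

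The asynchronous peak at RUNX1 P1 was narrow and was not listed in mitosis. It lay at chr21:35049425-35049630, 123 bp upstream of the canonical start, and was 206 bp wide, and only 9.90% of all asynchronous peaks were narrower. This peak held 1 WGATAR match, 1 RUNX core 20 bases from it, the AP-1 site TGACTCA, and a GATA:E-box composite, the CTG and GATAA spaced by 8 bases that GATA factors are known to bind together with TAL1. RUNX1 P1 thus had a GATA2 peak close to its start in asynchronous cells, while P2, taken at position 34888690, had none within 3 kb. The peak nearest to P2 lay 1837 bp from another annotated RUNX1 start. A pair of peaks lay 22.4 and 23 kb downstream of P1 in intron 2, at chr21:35026563-35027234 and chr21:35026171-35026421, 141 bp apart. A conserved blood enhancer of Runx1 is known in the same intron, and whether these peaks are that element was not tested. Each of the pair held a RUNX core, 14 and 26 bases from the nearest WGATAR match. Of the 4 RUNX1 peaks with a RUNX core, 3 were thus at P1 or in this pair, and the fourth, chr21:35334158-35334527, lay 285 kb upstream of P1 with its core 78 bases from a WGATAR match. None of the 4 was bookmarked, but with 5.04% of all asynchronous peaks bookmarked, 4 peaks are too few to tell a difference.

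RUNX1 also had wide and WGATAR-rich peaks that were not listed in mitosis. The peak with most matches, chr21:35834909-35835418, was 510 bp wide and held 22 WGATAR matches, or 43.1 per kb, 786 kb upstream of P1. Its matches were all on the forward strand, in a run of closely repeated GATA strings. The peak at chr21:35229091-35229831 held 7 matches in 741 bp, the same number as the bookmarked peak in intron 2. Over the 41 RUNX1 peaks the number of matches ran from 0 to 22 with a median of 2, and 3 peaks held none. A high number of WGATAR matches was therefore present both at bookmarked and at asynchronous-only RUNX1 peaks. The median was nonetheless 4 matches in the 3 bookmarked members of all 5 genes and 2 in the 56 asynchronous-only members. Over the whole list the medians were 3 and 2, and the bookmarked peaks were also wider, at medians of 674 and 367 bp.

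RUNX1T1 held the third mitotic peak, and it was at the start of the gene. RUNX1T1 (ENSG00000079102, minus strand, chr8:91954972-92103286) had 3 asynchronous peaks, all in its body, which is 0.861 per 100 kb and above 31.4% of protein-coding genes. The bookmarked peak, chr8:92094794-92095684, was 891 bp wide and contained the start of the canonical transcript and overlapped its exon 1. The mitotic peak within it, chr8:92095374-92095584, was 211 bp wide, covered 23.7% of it, and also contained the start site. Only 1 of the 4 WGATAR matches was in the mitotic peak, so the density was 4.74 per kb inside it and 4.41 per kb in the rest, and the centres lay 240 bp apart. This differs from both RUNX1 pairs, in which nearly all matches were in the mitotic peak, but these are 3 pairs and no test was made. The other RUNX1T1 peaks, 367 bp wide in intron 2 and 199 bp wide 5.76 kb upstream of the canonical start, were asynchronous only.

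RUNX2 had 7 asynchronous peaks and no mitotic peak. The gene (ENSG00000124813, plus strand, chr6:45328157-45664349) held 5 of them in introns 2, 2, 5, 6 and 7, and its window had 1.31 peaks per 100 kb, above 43.4% of protein-coding genes. The widest, chr6:45369688-45370339 in intron 2, was 652 bp wide with 1 WGATAR match, and it also lies in SUPT3H, a neighbouring gene for a subunit of a histone acetyltransferase complex. The others were 220 to 564 bp wide with 1 to 3 matches, and none had a RUNX core. The nearest protein-coding start belonged to RUNX2 for 4 of the 7 peaks and to another gene for 3, 2 of them to SUPT3H. No RUNX2 peak lay within 33 kb of the canonical start.

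RUNX3 had 3 asynchronous peaks and no mitotic peak, and 1 of them was in the gene. That peak, chr1:24952415-24952657, was 243 bp wide with 1 WGATAR match, and lay 22.3 kb upstream of the canonical start within the annotated gene (ENSG00000020633, minus strand, chr1:24899511-24965121). The other RUNX3 peaks lay downstream of the gene, and 1 of these, chr1:24803847-24804324, was in CLIC4, which encodes a chloride channel family protein. This CLIC4 peak held 5 WGATAR matches and the only RUNX core of the 18 peaks outside the RUNX1 window, 15 bases from the nearest match. The RUNX3 window had 1.13 peaks per 100 kb, above 40.1% of protein-coding genes.

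CBFB had 5 asynchronous peaks and no mitotic peak. The gene (ENSG00000067955, plus strand, chr16:67028984-67101058) held 3 of them, and its window had 1.84 per 100 kb, above 57.1% of protein-coding genes. The peak nearest to the start, chr16:67029563-67029806, was 244 bp wide, overlapped exon 2, lay 414 bp downstream of the canonical start and held 0 WGATAR matches. The intron 3 peaks were 314 and 281 bp wide with 2 matches and 1 match. The remaining pair lay downstream near PHAF1, a gene linked to autophagy. Of these, chr16:67108531-67108849 held 8 matches in 319 bp, in a run of repeated CTAT. Its 15 other protein-coding neighbours make the CBFB window the most crowded of the 5, against 0 to 3 for the others. CBFB peaks were all narrow, from 180 to 319 bp, below the median of 378 bp over all asynchronous peaks.

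**Figure D2:**
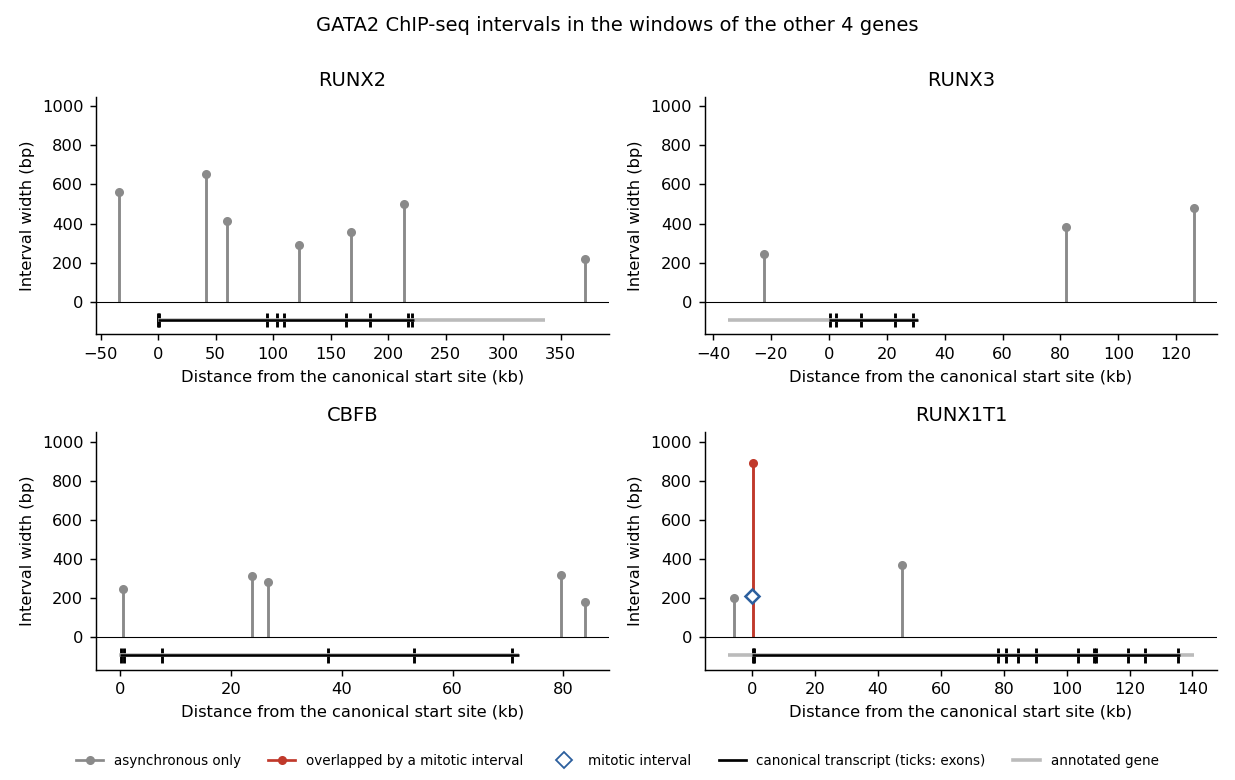
For RUNX2, RUNX3, CBFB and RUNX1T1, the x axis is the distance in kb from the canonical start (positive values lie downstream) and the y axis is the width of each GATA2 peak in bp, in grey for asynchronous only, in red where a mitotic peak overlaps and with an open diamond for the mitotic peak. The 1 red stem, 891 bp high, is at the start of RUNX1T1, and no peak of RUNX2, RUNX3 or CBFB is red.

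Members were bookmarked about as often as other peaks. The bookmarked share was 3 of 59, or 5.08% (1.06 to 14.1), against 5.04% of all asynchronous peaks. For RUNX1 it was 2 of 41, or 4.88% (0.596 to 16.5), and for the other 4 genes 1 of 18, or 5.56% (0.141 to 27.3). A count of 0 of 15 in RUNX2, RUNX3 and CBFB together allows a share of up to 20.0%, so these genes cannot be said to differ from RUNX1. A window with at least 1 mitotic peak was found for 2 of the 5 genes and for 18.5% of protein-coding genes, and 693 windows (3.46%) had 2 or more, as RUNX1 did. When at least 50% of each peak had to be shared (reciprocal overlap), 0 of the 59 and 2.02% of all asynchronous peaks were bookmarked, because each mitotic peak here covered less than that of its asynchronous peak.

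Width went with mitotic listing. The bookmarked member peaks were 767, 891 and 1150 bp wide, while the 56 asynchronous-only ones had a median of 344.5 bp and ran from 180 to 901 bp. By decreasing width the bookmarked peaks took places 1, 3 and 5 of the 59, so the groups overlapped. Over the whole list the medians were 674 bp for bookmarked and 367 bp for asynchronous-only peaks. Of the 14 member peaks at least 600 bp wide, 3 were bookmarked, or 21.4% (4.66 to 50.8), against 20.4% of all asynchronous peaks of that width. Of the 45 narrower member peaks 0 were bookmarked, which allows a share of up to 6.67%, against 2.16% of all narrower peaks. The wide asynchronous-only members were 10 RUNX1 peaks of 602 to 901 bp and the RUNX2 intron 2 peak of 652 bp. The lists hold no height or read count to set beside these widths, and the part of peak strength in mitotic listing was not tested.

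**Figure D3:**
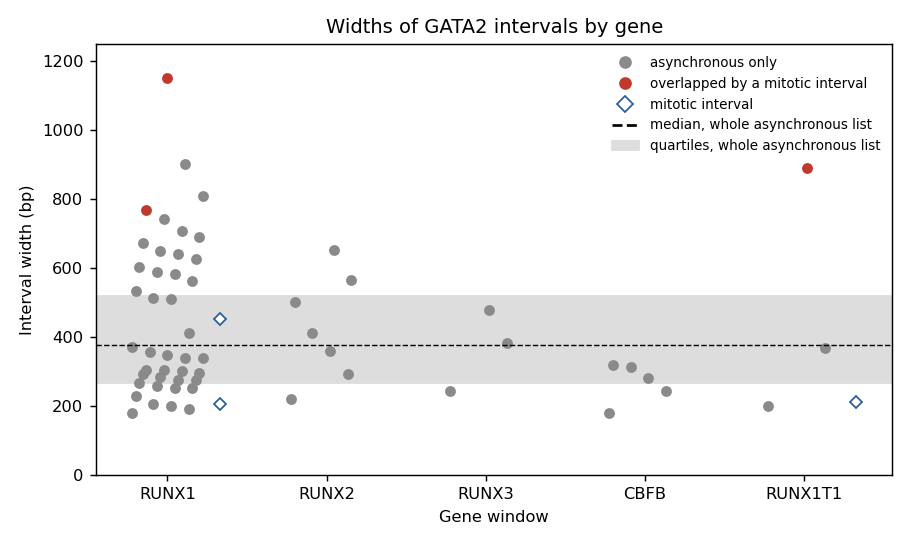
The y axis is the width in bp of each GATA2 peak by gene window, with grey points for asynchronous-only peaks, red points for asynchronous peaks overlapped by a mitotic peak, open diamonds for mitotic peaks, and the grey band and dashed line for the quartiles (267 and 518 bp) and median (378 bp) of all asynchronous peaks. The 3 red points, at 767, 891 and 1150 bp, lie above the band.

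Most members held a GATA site, as did most peaks anywhere. WGATAR was found in 55 of 59 member peaks, or 93.2% (83.5 to 98.1), against 93% of all asynchronous peaks, 62.7% of flanks of the same width taken 5 kb to either side of the members and 52.5% of such flanks of all peaks. The mean number of matches was 2.85 per member peak and 2.51 over all peaks, or 6.55 and 6.0 per kb. The excess of members per kb rests on the RUNX1 peak at chr21:35834909-35835418, which held 22 of the 168 matches. Without it the other 58 members had 2.52 matches per peak and 5.80 per kb, so the order per kb turned. The 4 member peaks with no match were 3 of RUNX1 and the one near the start of CBFB. Strings were searched on both strands, and matches of 1 string were counted without overlap. A match describes the sequence and does not show binding by a factor.

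The RUNX core AACCACA was not more frequent at the RUNX genes than elsewhere. AACCACA was found in 5 of 59 member peaks, or 8.47% (2.81 to 18.7), against 13.6% of all asynchronous peaks and 9.32% of the member flanks. With the shorter core ACCACA the member share was 40.7% and the share of all peaks 31.4%, so the order of members and all peaks depended on the string. The ETS string AGGAAGT was in 8 members, 13.6% (6.04 to 25) against 14.9% of all peaks, and the AP-1 strings TGACTCA and TGAGTCA in 9 members, 15.3% (7.22 to 27.0) against 13%. The E-box CAGCTG was in 14 members, 23.7% (13.6 to 36.6) against 24.1%. Each of these intervals contains the share of all peaks, so no difference was detectable with 59 peaks.

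The GATA:E-box composite was in 9 member peaks, 15.3% (7.22 to 27.0), against 8.55% of all asynchronous peaks, 1.69% of the member flanks and 1.38% of the flanks of all peaks. It overlaps WGATAR wherever an A or T precedes its GATA. RUNX1 had 6 of the 9, among them the bookmarked intron 2 peak, where the composite was inside the mitotic peak, and the P1 peak. RUNX2 had 2, in introns 2 and 5, and RUNX3 had 1, while CBFB and RUNX1T1 had none. The interval contains the share of all peaks, and with a looser form (CTG and GATA spaced by 7 to 9 bases) members were at 33.9% and all peaks at 36.7%, so the order turned.

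Members lay mostly away from start sites. Only 7 of 59, or 11.9% (4.91 to 22.9), were within 3 kb of a protein-coding start, against 21.4% of all asynchronous peaks, which the interval contains. By the canonical transcripts, 18 peaks were in introns, 2 overlapped an exon, 32 were upstream and 7 downstream. Of the 32 upstream peaks, 28 were still inside the annotated gene, 26 of them at RUNX1. Of the bookmarked members 1 was intronic, 1 was upstream and 1 was at an exon that holds the start.

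Genes for known partners of RUNX proteins were given the same windows. Of 18 such genes, 15 had an asynchronous peak (86.1% of all protein-coding genes did) and 6 had a mitotic peak, against 18.5% of all, with 100 asynchronous and 7 mitotic peaks in total. The windows of these 18 genes were 213 to 446 kb long, against a median of 227 kb over all genes, and no test was made. Both RUNX1T1 relatives of the ETO co-repressor family had mitotic peaks, with 10 asynchronous and 1 mitotic for CBFA2T2, and 6 and 2 for CBFA2T3. Among 8 other co-repressor genes, TLE2, TLE3 and NCOR1 each had 1 mitotic peak, with 8, 8 and 16 asynchronous peaks. TLE4, SIN3A, HDAC1 and HDAC3 had 3 to 6 asynchronous peaks and 0 mitotic peaks, and TLE1 had none of either. Of the acetyltransferase co-activators, KAT6A had 4 asynchronous peaks and 1 mitotic peak, CREBBP had 5 and 0, and EP300 had none. PRMT1 and HIPK2, a methyltransferase and a kinase that modify RUNX1, had 4 asynchronous peaks each and YAP1, a Hippo pathway co-activator, had none. The fusion partners ETV6 (of RUNX1) and MYH11 (of CBFB) had 12 and 4 asynchronous peaks and 0 mitotic peaks. KAT6A was the only one of the 18 with a mitotic peak in the gene body rather than in the flanks, whereas both RUNX1 mitotic peaks and the RUNX1T1 mitotic peak were in the body. The RUNX1 body takes 1217 kb of a 1417 kb window, and body and flank were not weighted by length. The RUNX1 mitotic peak upstream of P1 is in the body only by the annotated gene and lies outside the canonical transcript.

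By the number of mitotic peaks and then of asynchronous peaks, the windows most like that of RUNX1 were PLCL1 with 35 asynchronous peaks, MAML3 and ENSG00000271949 with 33 each, and AFF1 and ST6GAL1 with 28 each, all with 2 mitotic peaks, of 521 genes with that number. Their windows were 348 to 968 kb long, shorter than that of RUNX1.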

How the data were processed

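GATA2 ChIP-seq was made from asynchronous and from sorted mitotic K562 cells, with 1 library each and 1 input library each. The inputs were not analysed here. The authors aligned single-end reads to hg38, kept uniquely mapped reads, called peaks and removed blacklisted regions, and the submitters' processing notes name BWA 0.7.12, MACS2 2.1.0 and Genrich 0.6.1. How the calls of both programs were combined is not given in the sources used here. The deposited lists hold 3 columns, chromosome, start and end, whose unit is genomic position in bp, with no score or count. The depth of the libraries is therefore unknown.

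Peaks were assigned to gene bodies of GENCODE release 44 extended by 100 kb, and the lists were compared by shared bases (at least 1). Strings were searched in hg38. Shares have exact binomial intervals, and no test between conditions was made. Besides the 5 genes, the text names 18 partner genes (1 gene of the chosen list is not reported here), the genes nearest to bookmarked peaks, and the 5 genes whose windows were most like that of RUNX1. ZFPM2, SUPT3H, CLIC4 and PHAF1 were named after their values were seen. The genes, lists and alternatives were chosen with earlier results of these data known. Alternatives changed the windows, the overlap, the region searched and the strings, and the canonical transcript window and the count without the peak richest in WGATAR were added after seeing the data. The steps were tested on simulated data. The software was Python 3.11.15 with pysam 0.24.0, numpy 2.4.6, scipy 1.17.1 and, for plots, matplotlib 3.10.9.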

Additional observations from a re-analysis of the deposited data

How the results depend on the processing

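The count of 3 mitotic peaks was the same under every window tried. The 59 asynchronous peaks became 48 with gene bodies alone, 55 and 74 with 50 and 200 kb, 51 by nearest start site and 34 with the canonical transcript and 100 kb, for which RUNX1 fell from 41 to 17. The bookmarked share of members, 5.08%, was 4.05% to 8.82% under these windows, against 5.04% of all asynchronous peaks. With midpoints within 200 bp it was 3.39%, against 4.67% of all peaks. Among peaks at or above the median width it was 11.5%, against 9.65% of all such peaks. With 50% reciprocal overlap it was 0%, against 2.02% of all peaks. WGATAR matches per member peak, 2.85 in whole peaks, were 2.07 in the central 200 bp, 1.44 when AGATAA alone was counted, and 2.52 without the RUNX1 peak with most matches (chosen after seeing the data). The RUNX core share of 8.47% became 40.7% with ACCACA and stayed at 8.47% in the central 200 bp. The composite share of 15.3% became 33.9% with the looser form. Single genes with few peaks depended on the window, from 1 to 6 for RUNX3, 3 to 7 for CBFB and 4 to 12 for RUNX2. No paired analysis was possible because each condition has 1 library and no result comes from a test. Unknown depth limits every statement on a peak not listed in mitosis.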
